A study of Homo sapiens with 38 samples.

Results

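The metallothionein genes MT1A, MT1E, MT1F, MT1G, MT1M, MT1X, MT2A and MT3, the zinc exporter gene SLC30A1 and MTF1, which encodes the metal-sensing transcription factor of this pathway, were followed through RNA-seq of human neuroblastoma cell lines. These 10 genes were taken by symbol from 52360 gene symbols in the count tables, and each was listed for every library. The set was chosen by measured values, since MT1G was among the largest rises with GSK-J4 in these libraries. The levels of the 10 genes under GSK-J4 are therefore a description and carry no test.

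The samples formed 27 libraries in 15 groups, all from established cell lines. BE2C cells received GSK-J4, an inhibitor of the histone H3 lysine 27 demethylases KDM6A and KDM6B, at 2.5 μM, and were taken at 0 h, 24 h and 48 h (2 libraries each). No vehicle group was carried to the later times, so the drug and the time in culture cannot be told apart. BE2C cells were also transfected for 72 h with a control siRNA (siCtrl, 2 libraries) or with 1 of 3 siRNAs named for KDM6B (N1, N2 and N33, 1 library each). CHLA15 and CHLA20 cells were left untreated or received palbociclib, an inhibitor of the cell cycle kinases CDK4 and CDK6, at 300 nM over 72 h (2 libraries per line and condition). For NB1643 and NB1691 the dose was 3 μM over the same time, again beside untreated cells and with 2 libraries each. Per the labels BE2C cells grew in RPMI medium and the other lines in DMEM, whereas the study's methods give RPMI for CHLA15, CHLA20 and NB1691 too. The labels describe drug treatment of cultured cells but name xenograft tissue as the source of the RNA, and no label says whether replicates came from separate cultures, so p-values measure only the spread between these libraries.

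Metallothioneins are small, cysteine-rich proteins that bind zinc, copper and cadmium, and in human they are encoded by a cluster of genes on chromosome 16. When free zinc rises, MTF1 binds zinc, enters the nucleus and binds metal response elements (MREs), short sequences with the core TGCACNC or TGCGCNC, in the promoters of the metallothionein genes and of SLC30A1. The SLC30A1 protein, also called ZnT1, moves zinc out of the cell across the plasma membrane, so that binding and export of zinc are switched on together. MT2A and the MT1 genes are expressed in many tissues, and their transcription also responds to glucocorticoids and oxidative stress, whereas MT3 is known mainly from brain.

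In the GRCh37 annotation the 8 metallothionein genes lie on chromosome 16 in the order MT3 (56622986 to 56625000), MT2A (56642496 to 56643409), MT1E (56659387 to 56661024), MT1M (56666571 to 56667893), MT1A (56672578 to 56673999), MT1F (56691643 to 56694610), MT1G (56700642 to 56701977) and MT1X (56716382 to 56718108). MT1G is on the minus strand and the other 7 are on the plus strand. SLC30A1 (211744910 to 211752503) and MTF1 (38275246 to 38325264) are both on the minus strand of chromosome 1. MT1X overlaps an unnamed gene on its own strand over 321 bases, and 11.6% of its 100-base windows also occur elsewhere among the annotated transcripts, so its counts are uncertain to that extent. The other 7 metallothionein genes share no 100-base window with another gene, despite their similarity.

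The promoters of MT2A, MT1X and SLC30A1 are shown, from the RefSeq promoter table (build GRCh38.p14), because they hold matches to the MRE core. MTF1, the other member with an entry there, held none and is not printed. Each line gives the 250 bases before the transcription start, 5′ to 3′ on the gene's strand, and capitals mark every match to TGCACNC or TGCGCNC on either strand. Each sequence occurs once on its GRCh37 chromosome, at chr16:56642246-56642495 (plus strand) for MT2A, at chr16:56716132-56716381 (plus strand) for MT1X and at chr1:211752504-211752753 (minus strand) for SLC30A1.
MT2A: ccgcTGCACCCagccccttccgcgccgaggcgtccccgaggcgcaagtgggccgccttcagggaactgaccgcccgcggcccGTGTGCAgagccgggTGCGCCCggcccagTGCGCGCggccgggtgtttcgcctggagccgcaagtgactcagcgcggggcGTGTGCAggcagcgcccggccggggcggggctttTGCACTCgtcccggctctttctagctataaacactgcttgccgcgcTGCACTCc
MT1X: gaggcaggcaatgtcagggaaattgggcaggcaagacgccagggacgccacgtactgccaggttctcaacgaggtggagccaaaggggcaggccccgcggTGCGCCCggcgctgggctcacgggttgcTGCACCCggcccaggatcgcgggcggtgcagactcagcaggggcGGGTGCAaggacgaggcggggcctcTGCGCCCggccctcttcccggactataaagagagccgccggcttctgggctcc
SLC30A1: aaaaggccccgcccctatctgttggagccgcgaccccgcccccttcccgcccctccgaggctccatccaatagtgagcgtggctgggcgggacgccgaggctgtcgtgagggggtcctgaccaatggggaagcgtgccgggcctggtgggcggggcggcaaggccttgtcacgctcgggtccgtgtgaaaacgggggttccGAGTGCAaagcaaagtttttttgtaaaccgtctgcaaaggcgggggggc
In the 300 bases of each table entry, which also hold the first 50 bases of the transcript, MT2A had 8 matches, MT1X had 4, SLC30A1 had 2 and MTF1 had 0. Of all 35116 promoters of that length in the table, 29.6% held at least 1 match, 8.6% at least 2, 0.601% at least 4 and 0.0199% at least 8. A match is a run of letters and not an observed binding site. MT1A, MT1E, MT1F, MT1G, MT1M and MT3 had no entry.

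Levels are given as counts per 1000000 (CPM) after TMM scaling within each of the 3 experiments (siRNA, GSK-J4, palbociclib), and differences as log2 fold changes from edgeR with an approximate standard error (SE). The SE was derived as the absolute log2 fold change over the square root of the F statistic of its test. Libraries held between 36186567 and 93011010 gene counts. The floor was set at 3 counts, at most 0.0829 CPM, and a gene counts as at the floor where no library of the group exceeds it. None of 9 sympathoadrenal markers (DBH, TH, CHGA and others) was at the floor in any group, but their summed level in the untreated NB1691 libraries was 610 to 686 CPM, beside 2404 to 3300 CPM in the untreated CHLA15, CHLA20 and NB1643 libraries. The summed level of 10 markers of other cell types was 14888 to 15170 CPM in untreated NB1691, nearly all of it from COL1A1, with SOX10 alone at the floor, and 157 to 305 CPM in the other untreated lines, led by TWIST1. NB1691 thus stands apart from the other lines, and its part in a result is given below by leaving it out. KDM6B itself was at 6.47 and 8.76 CPM with siCtrl and at 8.99, 7.11 and 8.26 CPM with N1, N2 and N33, so the targeted transcript was not lower in the libraries labelled siKDM6B.

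GSK-J4 in BE2C cells went with a rise of the metallothionein transcripts from a low base. MT2A, which accounted for most metallothionein transcripts before the drug, was at 4.61 and 4.84 CPM at 0 h, at 61.9 and 78.1 CPM at 24 h, and at 59.1 and 56.3 CPM at 48 h. Its log2 fold change against 0 h was 3.89 ± 0.087 (SE, n = 2 against 2) at 24 h and 3.61 ± 0.088 at 48 h, or 14.8-fold and 12.2-fold. All 4 treated libraries lay above both 0 h libraries, and the 48 h libraries lay below the 24 h libraries. In such bulk samples, a change in the share of cells that express a gene and a change in RNA per cell cannot be told apart.

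MT1G went from nearly no reads to the second most abundant metallothionein transcript. Its counts were 0 and 1 at 0 h, 1454 and 1828 at 24 h, and 1615 and 1170 at 48 h, which are 30.6 and 38.9 CPM at 24 h and 24.9 and 23.7 CPM at 48 h. The ratio to the single read at 0 h was 2494 at 24 h, with an exact 95% counting interval of 447 to 98538, and 1751 at 48 h, with an interval of 314 to 69166. These intervals cover counting error only, and the single read at 0 h sets their width. Between 24 h and 48 h, where both groups have reads, MT1G fell by 0.51 on the log2 scale (SE 0.065).

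MT1X, MT1F and MT1E had some reads at 0 h. MT1X was at 1.30 and 0.732 CPM at 0 h, 19.5 and 19.9 CPM at 24 h, and 18.6 and 17.1 CPM at 48 h. MT1F was at 0.552 and 0.225 CPM, then at 10.3 and 12.4 CPM, then at 12.7 and 11.4 CPM. MT1E was at 0.166 and 0.0563 CPM, then at 6.18 and 7.43 CPM, then at 2.55 and 3.04 CPM. In all 3 genes the treated libraries lay above the 0 h libraries. The log2 fold changes at 24 h were 4.27 ± 0.13 for MT1X, 4.85 ± 0.19 for MT1F and 5.90 ± 0.28 for MT1E, and at 48 h they were 4.13 ± 0.13, 4.94 ± 0.18 and 4.60 ± 0.33. From 24 h to 48 h the 3 genes parted: MT1E fell by 1.30 (SE 0.13) and MT1X fell by 0.14 (SE 0.066) on the log2 scale, while the MT1F libraries of the 2 times overlapped (0.091 ± 0.086). The few reads at 0 h leave the folds against it uncertain by more than their SE: without the first 0 h library they were 6.86 for MT1E and 5.64 for MT1F at 24 h and 5.55 and 5.73 at 48 h, and without the second they were 5.34, 4.36, 4.04 and 4.44 in the same order. For MT1X they lay between 3.92 and 4.75 at 24 h and between 3.78 and 4.60 at 48 h with single libraries left out.

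The remaining metallothioneins were rarer. MT1M had no read in either 0 h library, 98 and 109 counts at 24 h (2.07 and 2.32 CPM) and 68 and 51 counts at 48 h (1.05 and 1.03 CPM). Against a floor of 3 counts over both 0 h libraries, MT1M was at least 52.4-fold higher at 24 h and at least 24.9-fold higher at 48 h, and it fell by 1.07 (SE 0.20) on the log2 scale between these times. MT1A also had no read at 0 h, with 8 and 4 counts at 24 h and 13 and 4 counts at 48 h, at least 3.04-fold and 3.56-fold higher on the same floor. MT3, the metallothionein known from brain, had 1 and 0 counts at 24 h and 4 and 7 counts at 48 h after none at 0 h, so it was at the floor at 24 h and at least 2.30-fold higher at 48 h. MT1A and MT3 had too few reads to enter the fit.

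**Figure D1:**
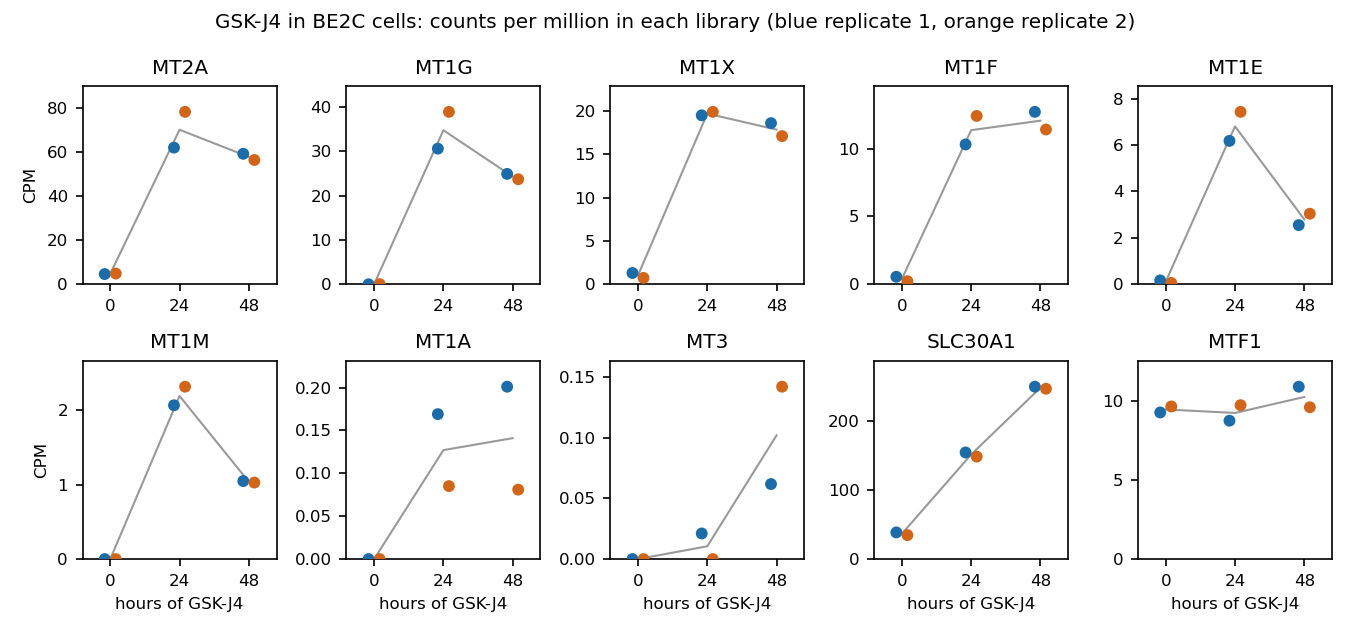
Level of each of the 10 genes in CPM (vertical axes, each from 0) against hours of GSK-J4 (horizontal axis) in BE2C cells. Points are single libraries and lines join the means of 2 libraries; 8 panels rise at 24 h with the treated libraries apart from the 0 h libraries, MT3 is above the floor only at 48 h, and the MTF1 libraries overlap between 8.75 and 10.9 CPM.

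The make-up of the metallothionein transcripts changed along with their sum. Summed over the 8 genes, the metallothionein level was 6.62 and 5.88 CPM at 0 h, 131 and 159 CPM at 24 h, and 119 and 113 CPM at 48 h. To compare genes of different length, levels were divided by the length of the exons in kb. On this per-length scale MT2A made up 80.7% to 89.3% of the metallothionein total at 0 h, 49.9% to 51.1% at 24 h and 53.7% to 53.9% at 48 h. MT1G went from at most 0.632% at 0 h to between 30.1% and 31.0% at 24 h and 27.6% in both 48 h libraries. MT1X, the second in order at 0 h with 7.14% to 12.0%, came after MT1G under the drug with 6.88% to 8.92%. The shares depend on the scale. By counts without division by length, MT1X was 19.6% and 12.4% at 0 h and 14.9% and 12.5% at 24 h. On that scale MT1G was 23.4% and 24.5% at 24 h, and MT2A went from 69.6% and 82.3% at 0 h to 47.3% and 49.1%.

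**Figure D2:**
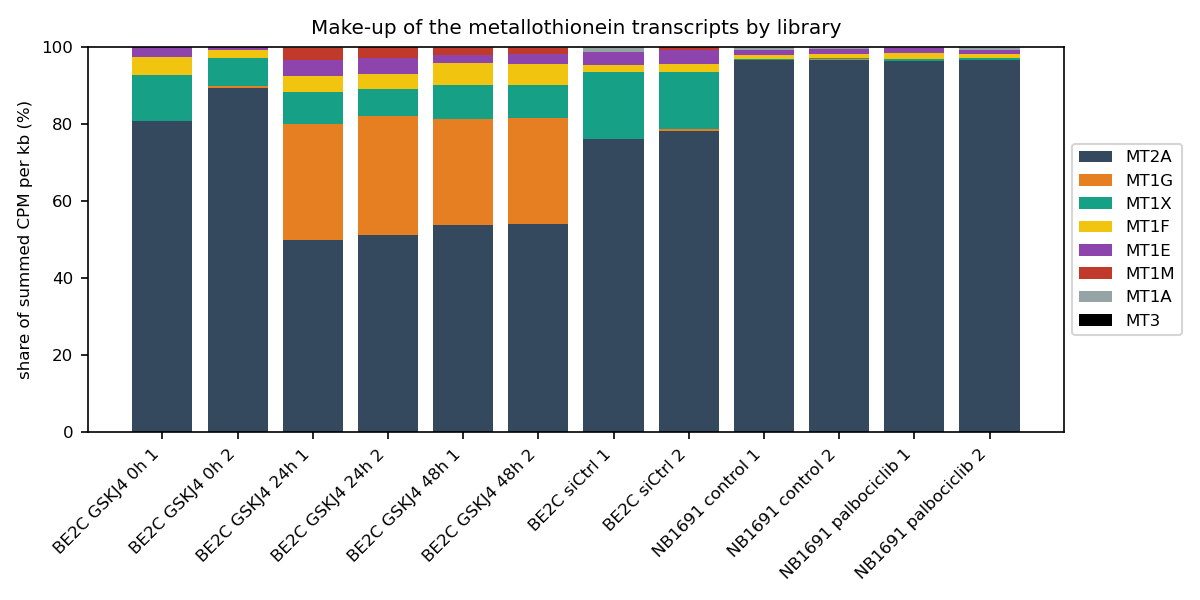
Share of each metallothionein in the sum of the 8 genes in CPM per kb of exon (vertical axis, percent), as 1 stacked bar per library for the libraries of the GSK-J4 experiment, siCtrl and NB1691. MT2A fills 76.2% to 96.7% of each bar without GSK-J4 and 49.9% to 53.9% with it, and MT1G fills 27.6% to 31.0% of the bars with GSK-J4.

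SLC30A1, the exporter, rose more gradually and went on rising. It was at 38.5 and 34.6 CPM at 0 h, at 154 and 148 CPM at 24 h, and at 249 and 246 CPM at 48 h. Against 0 h this was a log2 difference of 2.05 ± 0.040 after 24 h (4.13-fold) and 2.76 ± 0.039 after 48 h (6.76-fold), with a further 0.71 ± 0.032 (1.64-fold) from 24 h to 48 h. The groups did not overlap at any of these steps. On the per-length scale its level reached 42.0 CPM per kb at 48 h, and at 24 h MT2A was at 76.6 and MT1G at 46.3. These values are not a ranking, since the times differ and the annotated exon lengths make genes only roughly comparable. For MT2A, MT1G, MT1E, MT1M and MT1X, in contrast, the 48 h libraries were each below the 24 h ones.

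MTF1 did not rise with the metallothioneins and SLC30A1 at the transcript level. Its level was 9.27 and 9.65 CPM at 0 h, 8.75 and 9.73 CPM at 24 h, and 10.9 and 9.60 CPM at 48 h. It differed from 0 h by -0.035 ± 0.091 after 24 h and 0.12 ± 0.087 after 48 h on the log2 scale, and the libraries of all 3 times overlapped. Activity of the MTF1 protein was not measured.

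Counted together, 8 of the 9 members above the floor at 24 h had both treated libraries above both 0 h libraries, and 1, MTF1, overlapped. Such a separation upward was seen in 38.1% of all 17734 genes tested, and 55.3% of all genes passed an adjusted p of 0.05. At 48 h, 9 of 10 members were separated upward and MTF1 overlapped, with 44.9% of all genes separated upward and 71.5% past the threshold. From 24 h to 48 h, 2 members (SLC30A1 and MT3) were separated upward, 5 downward and 3 overlapped, beside 38.1% of all genes upward, 37.3% downward and 53.9% past the threshold. The 24 h and 48 h comparisons share their 0 h libraries, and since GSK-J4 values put the set forward, nothing is read from these counts.

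The genes around the cluster were then listed, a choice made after the values had been seen. Of 7 genes within 250 kb of the cluster that were tested and are reported here, 5 were higher and 1 lower at 24 h by edgeR's quasi-likelihood test with Benjamini-Hochberg adjustment over all genes, and 4 were higher and 2 lower at 48 h. The shares over all genes were 27.3% higher and 28.0% lower at 24 h, and 37.1% and 34.4% at 48 h. BBS2, a gene of the ciliary BBSome that begins at -25.9 kb from the start of MT2A, changed by 1.04 ± 0.049 at 24 h and 1.08 ± 0.048 at 48 h. NUP93, a nucleoporin gene 121.5 kb away on the other side, changed by -0.52 ± 0.031 and -1.18 ± 0.032. HERPUD1, an endoplasmic reticulum stress gene 323.6 kb away, changed by 1.21 ± 0.034 and 1.09 ± 0.034. Its neighbour SLC12A3, the thiazide-sensitive sodium chloride cotransporter, 256.6 kb from MT2A, had a mean of 0.474 CPM at 0 h (SD 0.0329, n = 2), 18.2 CPM at 24 h (SD 1.66) and 116 CPM at 48 h (SD 1.58). Its log2 fold changes were 5.25 ± 0.14 (edgeR adjusted p = 7.07e-33) and 7.92 ± 0.095 (adjusted p = 8.68e-47), and unlike MT1G and MT2A it was higher at 48 h than at 24 h. GNAO1, NUDT21 and OGFOD1, beyond BBS2, lay between -0.33 and 0.16 at both times. BBS2 and NUP93, the tested genes on either side of the cluster, moved less than any metallothionein with reads at 0 h.

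**Figure D3:**
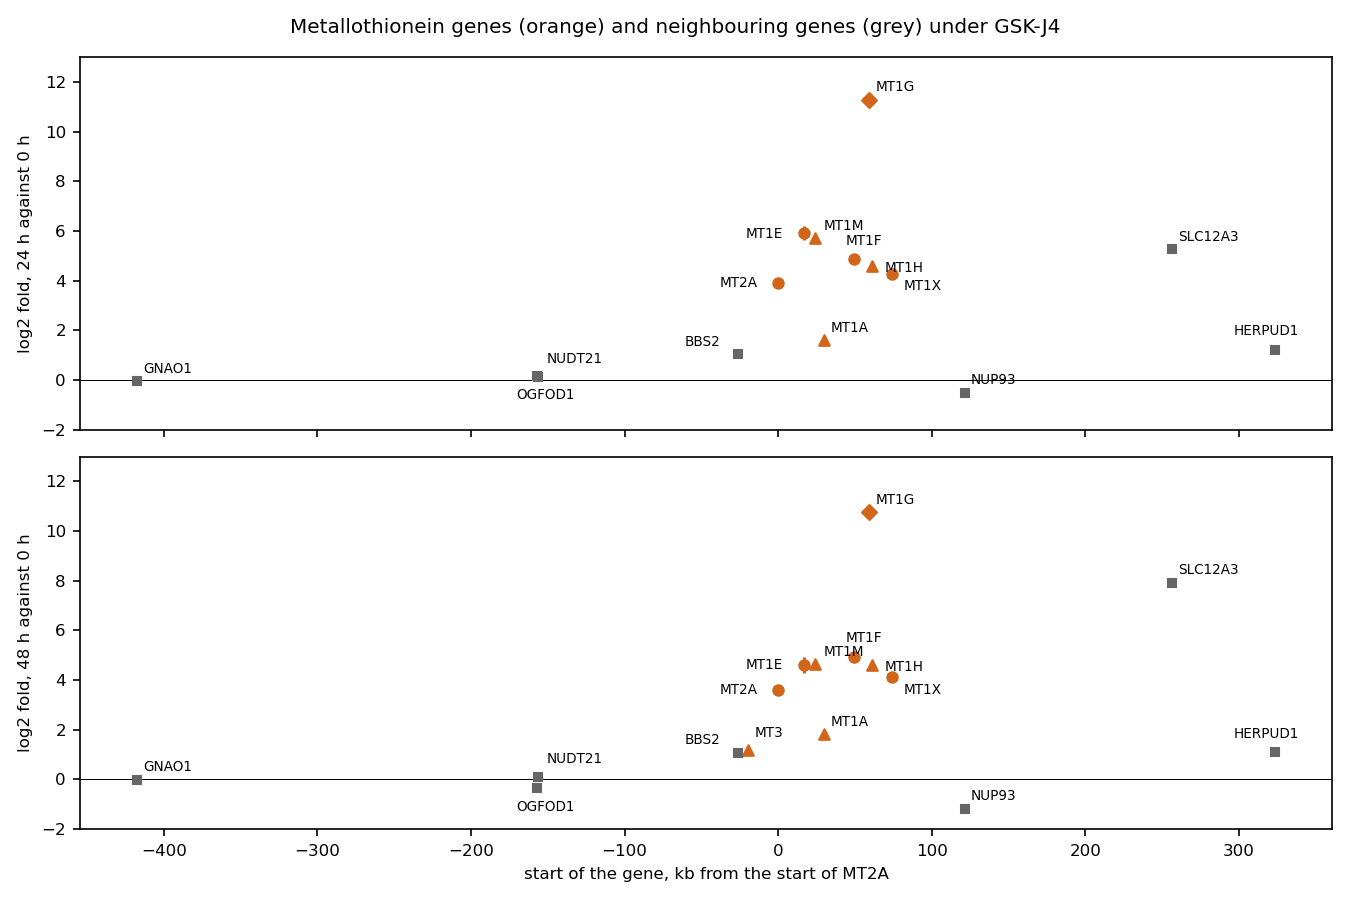
Log2 fold change at 24 h (upper panel) and 48 h (lower panel) of GSK-J4 against 0 h for the metallothionein genes (orange) and 7 genes within 250 kb of the cluster (grey), against the distance of the gene's start from the start of MT2A in kb. Circles and squares are edgeR values with SE, triangles are lower bounds and the diamond is the MT1G count ratio; between BBS2 (1.04 at 24 h) and NUP93 (-0.52) all plotted metallothioneins lie above zero, and SLC12A3 at 256.6 kb reaches 7.92 at 48 h.

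Other genes of metal handling were read from lists. Of 10 further metallothionein loci in the tables, pseudogenes included, MT1H alone had enough reads to be tested. MT1H, which lies between MT1G and MT1X, had no read at 0 h, 56 and 40 counts at 24 h and 68 and 48 counts at 48 h, at least 24.3-fold higher at either time. Among the other SLC30 transporters, many but not all of which carry zinc out of the cytosol, 7 of 9 were tested and 4 were higher and 1 lower at 24 h. Their median log2 fold change was 0.20 beside 0.014 for all genes, of which 27.3% were called higher and 28.0% lower. SLC30A10, at 3 counts over both 0 h libraries, was 10.1-fold higher by its count ratio (exact 95% counting interval 3.23 to 51.2). It passed the filter on low counts through the treated libraries, which tilts it towards a rise. SLC30A10 is among the genes counted as higher at 24 h and 48 h, but no test of it is read. SLC30A7, a Golgi zinc transporter, changed by -0.23 ± 0.042 (adjusted p = 5.80e-06). At 48 h, 6 of the 7 were higher and 0 lower (median 0.41 beside 0.055 for all genes, 37.1% called higher and 34.4% lower). With any 1 library left out, between 3 and 5 were called, and 3 without replicate 1 of the 48 h libraries.

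The SLC39 (ZIP) transporters carry zinc into the cytosol, the opposite way to SLC30A1. Of 11 tested, 2 were higher and 8 lower at 24 h (median -0.28), and 1 was higher and 9 lower at 48 h (median -0.36). For this list and the copper list below, the shares over all genes were 27.3% higher and 28.0% lower at 24 h, and 37.1% and 34.4% at 48 h. SLC39A8 had the largest fall at 24 h (-0.53 ± 0.092, adjusted p = 3.04e-06), SLC39A4, the intestinal zinc importer, the largest at 48 h (-1.12 ± 0.30, adjusted p = 0.000914), and SLC39A9 was the highest at both times (0.23 ± 0.031 and 0.25 ± 0.030). Of 10 genes of copper handling, 2 were higher and 5 lower at 24 h, and 4 were higher and 5 lower at 48 h. Among these, ATP7B, a copper-exporting ATPase, rose by 0.52 ± 0.063 and 1.04 ± 0.059 on the log2 scale, and COX17, a mitochondrial copper chaperone, changed by -0.54 ± 0.050 and -0.89 ± 0.051.

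Metallothionein genes also respond to glucocorticoids and to stresses other than metals, and lists for glucocorticoids and heat shock were read. Over all genes, 27.3% were called higher and 28.0% lower at 24 h, and 37.1% and 34.4% at 48 h. Of 11 heat shock genes, 2 were higher and 7 lower at 24 h (median -0.28), and 2 were higher and 5 lower at 48 h (median 0.024). HSPB1, a small heat shock protein gene, was the lowest at both times (-1.32 ± 0.068 and -1.47 ± 0.067), and HSPA1B the highest (0.19 ± 0.072 and 0.57 ± 0.068). Of 8 genes responsive to glucocorticoids, 4 were higher and 2 lower at 24 h (median 0.27), and 5 were higher and 1 lower at 48 h (median 0.59). TSC22D3, which encodes the glucocorticoid-induced leucine zipper, was the highest (1.80 ± 0.053 and 1.28 ± 0.055), with SGK1 the lowest at 24 h (-0.87 ± 0.070) and PER1, a clock gene, at 48 h (-0.41 ± 0.075). The part of heat shock or glucocorticoid signalling in the members' values was not tested.

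The siRNA libraries ask whether the same genes move when KDM6B is targeted by RNA interference. A limit is that the KDM6B transcript was not lower in them. The study describes KDM6B depletion in BE2C cells after siRNA transfection, with Western blots, and protein cannot be read from these libraries. MT2A was at 3.11 and 3.68 CPM with siCtrl and at 0.733, 7.15 and 4.14 CPM with N1, N2 and N33, so the 3 siRNAs lay on both sides of the control. SLC30A1 was at 68.1 and 63.2 CPM with siCtrl and at 87.0, 63.6 and 102 CPM with the 3 siRNAs. MTF1, at 10.7 and 11.3 CPM with siCtrl and 12.3, 15.6 and 20.7 CPM with the siRNAs, was the one member of the 7 above the floor whose groups did not overlap, beside 16.3% of all genes separated upward. The N33 library, the highest for SLC30A1 and MTF1, also had a summed neuroblastoma marker level of 986 CPM, against 2336 to 3512 CPM in the other siRNA libraries, and the part of this in its values was not tested.

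None of the 6 members with enough reads passed an adjusted p of 0.05 in edgeR with the 3 siRNAs as 1 group, and 0% of all 17472 genes did. Differences between the 3 siRNAs enter the spread of this fit (common coefficient of variation 0.35). The lack of a call therefore says little about the members. None of the 6 had an unadjusted p under 0.05 in that fit, and 0 of 6 passed the adjusted threshold with DESeq2 or limma-voom either. Unadjusted p-values under 0.05 occurred for 1 of 6 with DESeq2, 0 of 6 with limma-voom, 2 of 6 without N1 (smallest 0.00497, smallest adjusted p = 0.329) and 1 of 4 without N2. The log2 fold changes were 1.88 ± 0.88 for MT1F (adjusted p = 0.564), 1.01 ± 0.64 for MT1E (0.660), 0.56 ± 0.31 for MTF1 (0.624), 0.36 ± 0.26 for SLC30A1 (0.704), 0.24 ± 0.82 for MT2A (0.948) and -0.015 ± 0.40 for MT1X (0.994). The MT1F value rested on N2 and N33 (0.766 and 1.12 CPM), with N1 at 0.142 CPM beside 0.149 and 0.214 CPM in siCtrl. MT1G had 0 and 1 counts with siCtrl and 2, 11 and 0 counts with N1, N2 and N33. Over all genes 1615 had an unadjusted p under 0.05 in edgeR, DESeq2 called 157 and limma-voom 0. None of the genes in the metal lists was called either, and the medians were 0.28 for the 5 other SLC30 genes tested, -0.037 for the 11 importers and -0.18 for the 10 copper genes, beside 0.044 for all genes.

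Among untreated cells of the 4 other lines, the metallothioneins ranged from the floor to high levels. NB1691 was high, CHLA15 and CHLA20 were low, and NB1643 had next to none. The summed metallothionein level was 190 and 188 CPM in untreated NB1691, 1.02 and 0.731 CPM in CHLA15, and 1.22 and 1.25 CPM in CHLA20. The 2 untreated NB1643 libraries held 3 and 1 metallothionein counts in all, every one of them MT2A. MT1E had no read in any CHLA15, CHLA20 or NB1643 library and 165 and 184 counts in untreated NB1691. MT1G, the gene with the steepest rise under GSK-J4, had 0 counts in all 12 libraries of CHLA15, CHLA20 and NB1643 and 4 and 11 counts in untreated NB1691. On the per-length scale MT2A was 96.5% to 96.7% of the metallothionein total in untreated NB1691, where MT1G was at most 0.0954%. BE2C cells with GSK-J4 had a lower summed level, 113 to 159 CPM, with MT1G at 27.6% or more of the per-length total. These differences lie between experiments scaled apart and were not tested.

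MT2A was at 182 and 179 CPM in untreated NB1691, 0.818 and 0.626 CPM in CHLA15, 0.959 and 0.996 CPM in CHLA20, and 0.0409 and 0.0192 CPM, 3 counts or fewer, in NB1643. It differed between the 4 lines (edgeR, adjusted p = 5.87e-23 over 22133 genes, 91.2% of which were called). NB1691 exceeded CHLA15 by 7.94 ± 0.12 on the log2 scale and CHLA20 by 7.53 ± 0.12, whereas CHLA20 and CHLA15 did not differ beyond their spread (0.41 ± 0.21, adjusted p = 0.228). MT1A, MT1E, MT1F and MT1X passed the filter on low counts through NB1691 alone and so had to differ between the lines, and their values are given without a test.

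SLC30A1 varied far less between the lines than MT2A. It was at 25.5 and 28.0 CPM in untreated NB1691, 15.2 and 15.3 CPM in CHLA15, 14.4 and 15.9 CPM in CHLA20, and 11.8 and 13.6 CPM in NB1643 (adjusted p = 3.22e-09 between the lines). NB1691 was above CHLA15 by 0.81 ± 0.088 and above NB1643 by 1.08 ± 0.089 on the log2 scale, and CHLA20 and CHLA15 did not differ beyond their spread (-0.0100 ± 0.091, adjusted p = 1). The step from CHLA15 down to NB1643 (-0.27 ± 0.092, adjusted p = 0.0153) was lost when either CHLA15 library or the first NB1643 library was left out (adjusted p = 0.0788, 0.0914 and 0.240). With NB1691 left out, an alternative chosen after seeing the data, SLC30A1 missed the threshold between the lines (adjusted p = 0.0819), while MT2A passed it (4.31e-06).

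MTF1 followed the same order, with NB1691 highest and NB1643 lowest. It was at 40.3 and 41.5 CPM in untreated NB1691, 15.8 and 14.3 CPM in CHLA15, 16 and 13.2 CPM in CHLA20, and 6.24 and 4.78 CPM in NB1643 (adjusted p = 3.58e-14, and 1.80e-07 with NB1691 left out). NB1643 was below CHLA15 by a log2 difference of -1.44 ± 0.11 (adjusted p = 1.52e-09), NB1691 was above it by 1.44 ± 0.097, and CHLA20 and CHLA15 did not differ beyond their spread (-0.039 ± 0.10, adjusted p = 0.882). Each line is 1 cell line, so these are differences between lines and not between kinds of neuroblastoma. BE2C was scaled in other experiments and is set beside them only as levels: SLC30A1 was at 38.5 and 34.6 CPM at 0 h of GSK-J4 and 68.1 and 63.2 CPM with siCtrl.

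**Figure D4:**
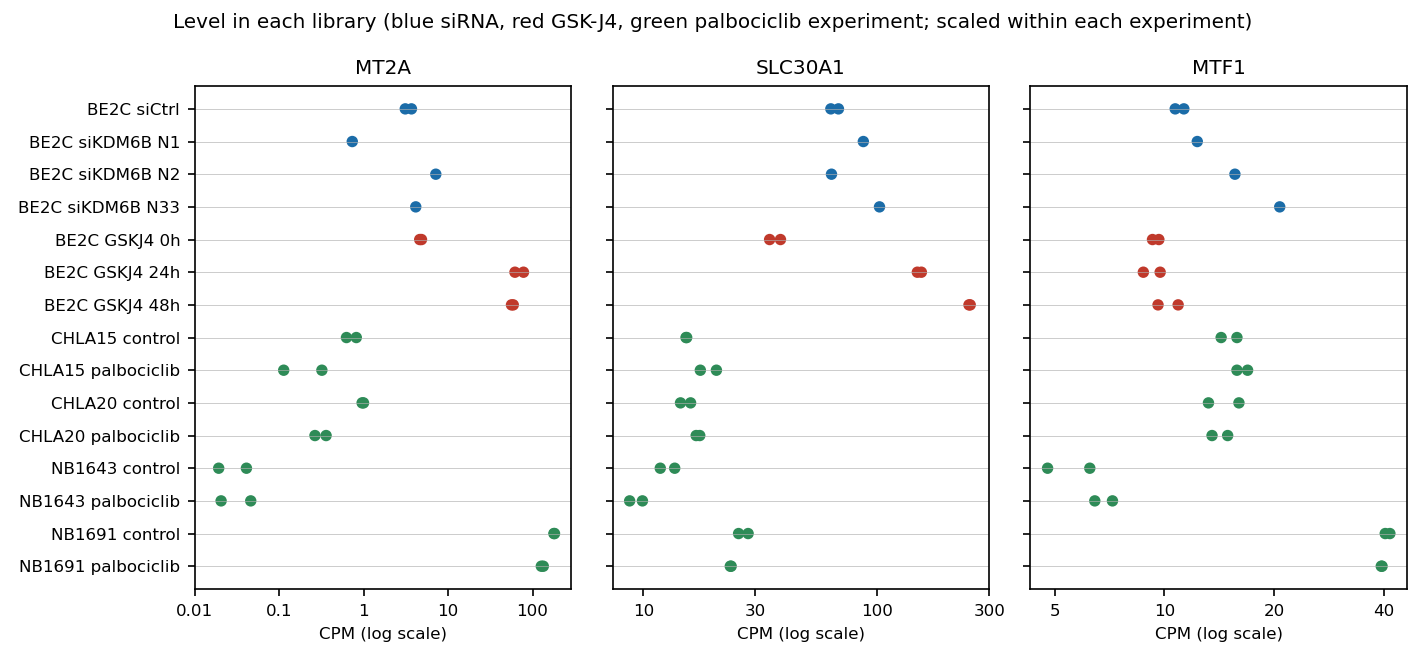
Level of MT2A, SLC30A1 and MTF1 in CPM (horizontal axes, log scale) in each library of the 15 groups (rows), coloured by experiment and scaled within it. MT2A spans 0.0192 to 182 CPM over the libraries, with GSK-J4 and NB1691 highest and NB1643 lowest.

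Palbociclib, which halts the cell cycle in G1, went with lower MT2A in the 3 lines where MT2A could be measured. In CHLA15, MT2A went from 0.818 and 0.626 CPM (62 and 36 counts) to 0.113 and 0.320 CPM (7 and 20 counts), so the log2 difference was -1.75 ± 0.29 (adjusted p = 0.000161 in edgeR). In CHLA20 it went from 0.959 and 0.996 CPM to 0.359 and 0.265 CPM (-1.64 ± 0.26, adjusted p = 6.72e-05). In NB1691 it went from 182 and 179 CPM to 134 and 127 CPM (-0.47 ± 0.071, adjusted p = 4.79e-05). The treated libraries lay below the untreated ones in all 3 lines, by 3.35-fold, 3.11-fold and 1.39-fold. In NB1643 every library had 3 MT2A counts or fewer, so no fold is given. The low counts in CHLA15 leave the size uncertain: without the first treated library the log2 fold change was -1.19, and without the second it was -2.68.

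SLC30A1 moved in different directions in different lines. It was at 17.5 and 20.5 CPM with palbociclib in CHLA15, beside 15.2 and 15.3 CPM untreated (0.32 ± 0.089, adjusted p = 0.0113), a call lost without either untreated library or without the second treated one (adjusted p = 0.0763, 0.0583 and 0.221). In NB1643 it fell from 11.8 and 13.6 CPM to 8.73 and 9.90 CPM (-0.45 ± 0.097, adjusted p = 0.00109). It was at 16.8 and 17.4 CPM in CHLA20 (0.18 ± 0.090, adjusted p = 0.164) and at 23.7 and 23.5 CPM in NB1691 (-0.18 ± 0.086, adjusted p = 0.117), neither past the threshold. The NB1691 value passed when libraries were scaled by their totals (-0.27, adjusted p = 0.0190) and when the line was fitted alone (-0.20, adjusted p = 0.00315).

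MTF1 stayed under the threshold in all 4 lines. With palbociclib it was at 15.8 and 16.9 CPM in CHLA15 (0.12 ± 0.10, adjusted p = 0.430), 14.9 and 13.5 CPM in CHLA20 (-0.046 ± 0.10, 0.816), 7.20 and 6.44 CPM in NB1643 (0.30 ± 0.12, 0.0619) and 39.3 and 39.5 CPM in NB1691 (-0.054 ± 0.093, 0.702). The NB1643 value passed with DESeq2 (adjusted p = 0.0318), with upper-quartile scaling (0.0295), with no filter on low counts (0.0164), with a replicate block (0.0167) and without the first untreated library (0.00483).

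The rarer metallothioneins could be followed in NB1691 alone. MT1E went from 165 and 184 counts to 116 and 71 counts (-0.59 ± 0.24, adjusted p = 0.0766). MT1E passed with limma-voom (adjusted p = 0.00543), library totals (0.0460), no filter (0.0463) and the line fitted alone (0.00359). MT1A went from 41 and 33 counts to 10 and 19 counts (-1.02 ± 0.48). It passed the filter on low counts through the untreated NB1691 libraries, which tilts the comparison towards a fall, so no test of MT1A is read. MT1F (-0.094 ± 0.19, adjusted p = 0.754) and MT1X (0.099 ± 0.29, 0.834) showed no difference beyond their spread there. In CHLA15 and CHLA20 both genes were at 11 counts or fewer in every library, too few to show any but a large change. Among the members with a value, 2 of 5 were called in CHLA15 (29.8% of all 22133 genes), 1 of 5 in CHLA20 (29.6%), 1 of 2 in NB1643 (39.9%) and 1 of 7 in NB1691 (32.8%). The 7 in NB1691 include MT1A, which was not called.

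Whether palbociclib moved the members differently in different lines was tested as an interaction of line and drug. MT2A (adjusted p = 0.00127) and SLC30A1 (0.000492) passed, MTF1 did not (0.212), and 38% of all genes passed. MT1A, MT1E, MT1F and MT1X, kept in the fit through NB1691 and at 11 counts or fewer elsewhere, could show little here and are not counted. Pairwise differences, added after seeing the data, put the MT2A effect in NB1691 closer to zero than in CHLA15 by 1.28 ± 0.308 (adjusted p = 0.00489) and than in CHLA20 by 1.17 ± 0.27 (0.00394), while CHLA20 and CHLA15 gave a difference of 0.107 ± 0.41 (0.99). The SLC30A1 effect in NB1643 was lower than in CHLA15 by a log2 difference of -0.762 ± 0.132 (adjusted p = 0.000275) and lower than in CHLA20 by -0.622 ± 0.133 (0.00243). With NB1691 left out, the SLC30A1 interaction remained past the threshold (0.00207) and that of MT2A did not (0.474). MT2A was at the floor in NB1643, so its test without NB1691 rests on CHLA15 and CHLA20 and cannot show that the lines agree. CHLA15 and CHLA20 received 300 nM and the NB lines 3 μM, so line and dose cannot be told apart.

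**Figure D5:**
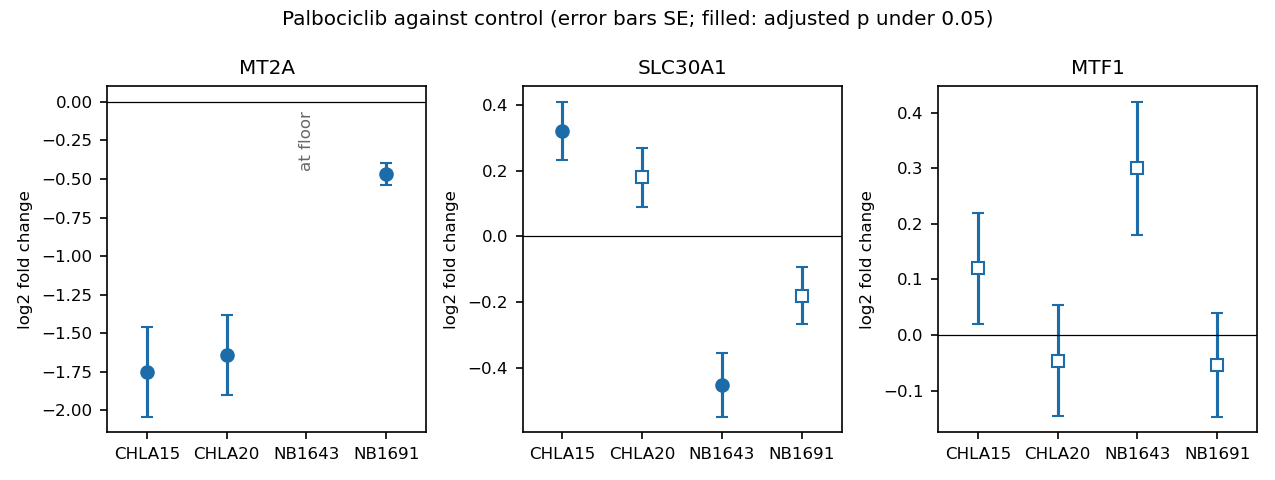
Log2 fold change of MT2A, SLC30A1 and MTF1 with palbociclib against untreated cells (vertical axes, scaled separately) in the 4 lines, with bars for the SE and filled points for an adjusted p under 0.05. MT2A lies below zero in CHLA15 (-1.75), CHLA20 (-1.64) and NB1691 (-0.47) and is at the floor in NB1643, and SLC30A1 runs from 0.32 in CHLA15 to -0.45 in NB1643.

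Of the other SLC30 genes, 7 were tested in each line, and 2 were higher in CHLA15, 2 in CHLA20, 0 in NB1643 and 3 in NB1691, with 0 lower in any line, beside 14.2%, 13.7%, 20.3% and 17.4% of all genes called higher. SLC30A3, a transporter that loads zinc into synaptic vesicles, had the largest rise in CHLA15 (0.68 ± 0.061, adjusted p = 1.24e-07) and in CHLA20 (0.77 ± 0.061, adjusted p = 2.08e-08). In NB1691 it was SLC30A10 (1.04 ± 0.31, adjusted p = 0.0159), on few reads (15 and 13 counts untreated, 20 and 26 treated). Of the SLC39 importers, 1 was higher and 3 lower in CHLA15, 2 higher and 4 lower in CHLA20 (12 tested in each), 5 higher and 2 lower in NB1643 (12 tested), and 4 higher and 1 lower in NB1691 (13 tested), beside 15.6%, 15.9%, 19.7% and 15.5% of all genes called lower. SLC39A8 was the lowest of them in CHLA15 (-0.75 ± 0.095), CHLA20 (-1.08 ± 0.091) and NB1643 (-0.78 ± 0.082), and SLC39A14 in NB1691 (-0.63 ± 0.053). Among 10 copper genes, ATP7A, the copper exporter mutated in Menkes disease, was the highest in CHLA15 (0.79 ± 0.067) and CHLA20 (0.81 ± 0.067).

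The genes whose pattern was most like that of a member were found over all 15 groups, among 14722 genes with a mean of at least 1 CPM, by the root mean square (RMS) difference of log2 CPM after centring each gene. The libraries were scaled together for this, although the experiments differ in cell line, and the values are a description. For MT1G the nearest were the transcript RP4-756G23.5 (1.48), SLC12A3 (1.56), described above as a gene 256.6 kb from MT2A, and TRIM29 (1.79), against an RMS of 3.22 for MT1G around its own mean. For MT2A they were GADD45B (1.34), ALPK2 (1.38) and WT1-AS (1.55), against 3.66, and for MT1X they were CDH22 (0.849), KLF4 (1.08) and FAT2 (1.21), against 2.72. SLC30A1 was most like TFRC, the transferrin receptor (0.493), ZC3HAV1L (0.518) and SLC12A2 (0.578), against 1.44. MTF1, the member that varied least (0.75), was most like CLIP1 (0.212), CAP1 (0.244) and DHDDS (0.261).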

How the data were processed

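Gene-level read counts of RNA-seq libraries were analysed. The authors aligned reads with STAR 2.5.3a to GRCh37 (hg19) and counted them per gene with HTSeq, and the deposited values are whole-number counts without normalization. The BE2C tables (siRNA and GSK-J4) list 50652 genes, with 50778 in the palbociclib tables and 49070 in both. HTSeq's summary lines were left out, and 4% to 6.74% of reads had no unique alignment. The 38 files were reduced to 27 libraries, since each BE2C library came as 2 files that differed less (chi-square per degree of freedom 1.48 to 1.65) than replicates did (1.89 to 4.33). That the files of an siRNA belong to 1 library was not stated for certain in the labels.

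Each experiment was fitted apart with edgeR 4.0.16 in R 4.3.3: TMM scaling, filterByExpr, quasi-likelihood F tests, and p-values adjusted by Benjamini-Hochberg over 17472 genes (siRNA), 17734 (GSK-J4) or 22133 (palbociclib), with a threshold of 0.05. The scripts were tested on simulated data. Common coefficients of variation were 0.35, 0.0219 and 0.0523. DESeq2 1.42.0, limma-voom (limma 3.58.1), other scalings and filters, a replicate block and leaving out single libraries were alternatives. Samples were grouped by their labels. Intervals and floors cover counting error only.

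The members and gene lists were chosen with earlier results of these data known. All members were named, with the 3 genes most like each of 5 members. List genes were named from the highest and lowest called gene of each list and comparison, and not all of these are printed. Promoter sequences came from RefSeq, and positions and exon lengths from the GENCODE annotation on GRCh37. A neighbouring gene and a marker gene are not reported here.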

Additional observations from a re-analysis of the deposited data

Results flagged for a closer look

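The effect of palbociclib on MT2A differed between lines (interaction adjusted p = 0.00127, edgeR). With NB1691 left out, an alternative chosen after seeing the data, the interaction missed the threshold (adjusted p = 0.474). That fit leaves CHLA15 and CHLA20 as the lines where MT2A could be measured, so it cannot show that the lines agree. MT2A was lower in every treated library of CHLA15, CHLA20 and NB1691 than in the untreated libraries of the same line, with log2 fold changes of -1.75, -1.64 and -0.47. It could not be measured in NB1643.

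The effect of palbociclib on SLC30A1, the zinc exporter, also differed between the lines (interaction adjusted p = 0.000492). It was higher with the drug in both libraries of CHLA15 (0.32) and lower in both libraries of NB1643 (-0.45). The doses differed between these lines, and NB1691 stood apart in its marker genes; the part of either in these differences was not tested, beyond the values without NB1691 given above.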

How the results depend on the processing

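Of 101 counts of called members under the alternatives, 82 were within 1.5 times the reported count, 10 were lower and 9 higher. Of 891 values of single members, 22 changed sign, and none of these had passed the threshold. With the siRNAs, MT1X (-0.015) became 0.030 with library totals, 0.0019 with upper-quartile scaling, and between -0.28 (without N2) and 0.14 (without N1) with single libraries left out (N1 and N2 only: 0.070). MT2A (0.24) became -0.25 with limma-voom and lay between -0.48 (without N2) and 0.74 (without N1). With palbociclib in CHLA15, MT1X (-0.0082) became 0.035 with DESeq2, 0.25 with limma-voom and 0.079 with a replicate block. With single libraries left out it lay between -0.56 and 1.29, and MT1F between -1.78 and 0.41. On leaving out libraries, MTF1 in CHLA20 lay between -0.19 and 0.085, MT1F in NB1691 between -0.35 and 0.12, and MT1X in NB1691 between -0.13 and 0.29. Between untreated CHLA20 and CHLA15, SLC30A1 became 0.0030 with DESeq2, and lay between -0.076 and 0.067 with libraries left out, and MTF1 lay between -0.18 and 0.092. The causes were not tested.

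The SLC30A1 log2 fold change ranged from 1.97 to 2.13 at 24 h and from 2.68 to 2.83 at 48 h of GSK-J4 with single libraries left out, and was 2.87 at 48 h with upper-quartile scaling, which moved the median of all genes from 0.055 to 0.1645. The same scaling moved the share of called genes that were higher from 48.1% to 58.1% between 24 h and 48 h. With library totals in place of TMM, the share of called genes that were higher with palbociclib in NB1691 was 35.9% in place of 52.9%, and the median of all genes between untreated NB1691 and CHLA15 was -0.3204 in place of 0.083, with SLC30A1, MT2A and MTF1 still higher in NB1691. Called members in CHLA15 numbered 1 to 2 with a library left out, and in NB1643 1 to 2. In NB1643 they numbered 2 with DESeq2, upper-quartile scaling, no filter or a replicate block, in place of 1. In NB1691 they numbered 3 with limma-voom or library totals, 2 with no filter and 4 with the line fitted alone. The counts with limma-voom and with the line alone include MT1A, whose test is not read. Asking for 10 counts in every library leaves out MT2A and the rarer metallothioneins by construction, and left 1 called member in CHLA15, 0 in CHLA20, 0 in NB1691, 1 for the interaction and 2 between untreated lines. Leaving out NB1691, chosen after seeing the data, left 1 for the interaction and 2 between untreated lines, where the count of 7 includes genes kept through NB1691.

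Replicate numbers did not pair the samples (correlation of deviations between -0.0628 and 0.0483). With a replicate block the SLC30A1 values under GSK-J4 were 2.05 and 2.76, as without it. No paired analysis was possible for the siRNA comparison because each siRNA has 1 library. At 3 counts or fewer a member could not be told from absent, which limits MT1A, MT1G, MT1M and MT3 in most libraries without GSK-J4 and every metallothionein in NB1643.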
